A study of Mus musculus with 4 samples.

Results

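Snai1, Snai2, Twist1, Twist2, Zeb1, Zeb2, Prrx1, Prrx2, Msx1 and Msx2 encode transcription factors of endocardial transformation and cushion mesenchyme. These 10 genes were chosen by name, as 5 pairs of paralogues, from the 45706 genes of the count table, and all 10 were among the 16570 genes that passed the filter on low counts. RNA came from outflow tracts, where blood leaves the embryonic heart, of C57BL/6 mouse embryos at embryonic day 12.5. Wild-type (WT) embryos were compared with Sox17eKO embryos, which lacked Sox17 in the endothelium of the aortic root through a Cre recombinase under an Nfatc1 enhancer. Whether the WT embryos carried Cre or a floxed allele is not stated in the sources used here. Each library pooled 10 hearts, each genotype had 2 such pools, and the comparison was made to find targets of the transcription factor SOX17. The deletion was aimed at some endothelial cells, whereas the libraries hold RNA from all cells of the tissue, in which fewer cells of a type and less RNA per cell cannot be told apart.

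In the embryonic heart, endocardial cells over the cushions loosen their junctions, enter the matrix below and become mesenchyme. This epithelial-to-mesenchymal transition (EMT) is set off by TGF-beta, BMP and Notch signals, and in the outflow tract neural crest cells add further mesenchyme. The cushions later form valve leaflets and the septum between the great arteries. SNAI1, SNAI2, ZEB1 and ZEB2 are repressors that bind E-box DNA and are best known for silencing cadherin genes. TWIST1, TWIST2, PRRX1, PRRX2, MSX1 and MSX2 are known from mesenchyme of the cushions, face and limbs.

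Reads in genes numbered between 8113463 (WT replicate 2) and 21883956 (Sox17eKO replicate 2) per library. Sox17, the targeted gene, was at 6.05 and 6.83 CPM (counts scaled to the size of each library) in WT replicates 1 and 2 and at 2.76 and 2.82 CPM in Sox17eKO replicates 1 and 2. Its log2 fold change, written log2FC from here on and always Sox17eKO over WT, was -1.19 (edgeR adjusted p = 0.00574), and -1.12 with an edgeR adjusted p of 0.0786 once WT replicate 2 was left out. All 12 endocardial and endothelial markers and all 12 cushion and valve mesenchyme markers passed the filter on low counts. Reads that matched no annotated feature in the counting made up 22.2% and 20.4% of uniquely placed reads in WT and 34.1% and 29.5% in Sox17eKO.

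RefSeq promoter windows on GRCm38.p6, from 250 bases before to 50 after a start site, were at hand for 8 of the 10 genes, in 11 windows. No window was at hand for Snai2 or Zeb1. The windows were searched for the E-box that snail and ZEB proteins bind (CACCTG, or CAGGTG on the other strand) and for a core motif of SOX proteins (ATTGTT, or AACAAT on the other strand). The E-box was found at Snai1 and Msx1 and the SOX motif at Twist1, while 20.2% and 10.7% of all 32851 windows held them. The stretches are shown because they hold letters that the families of these factors, or SOX proteins, can bind near the start of a gene described here. Capitals mark the motif, and each stretch is read 5′ to 3′ on the gene's strand and lies wholly before the start site.
Snai1 (chr2:167538029-167538114, plus strand): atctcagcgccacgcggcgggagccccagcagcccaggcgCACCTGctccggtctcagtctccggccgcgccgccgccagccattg
Msx1 (chr5:37824750-37824835, minus strand): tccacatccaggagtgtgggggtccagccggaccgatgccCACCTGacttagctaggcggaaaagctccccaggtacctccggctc
Twist1 (chr12:33957441-33957526, plus strand): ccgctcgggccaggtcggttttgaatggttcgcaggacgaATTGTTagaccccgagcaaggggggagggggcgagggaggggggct
The first base of the motif lies 126 bases before the start of Snai1, 210 before that of Msx1 and 190 before that of Twist1. A match of letters is a description of the sequence and not a binding site.

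All 10 genes were expressed, over a wide range of levels. Per kb of exonic length, the level of Twist1 was the highest of the 10, between 28.9 and 35.0 CPM per kb over the 4 libraries. Prrx2 followed with a level of 16.6 to 21.7 CPM per kb, Zeb1 with 12.5 to 16.4 and Zeb2 with 6.01 to 7.49. The ranges of these 4 genes did not overlap. Snai2 (4.68 to 5.15 CPM per kb) and Msx1 (4.56 to 5.31 CPM per kb) could not be ordered. Prrx1 came below them, at 2.86 to 4.32 CPM per kb. Its range overlapped that of Snai1 (2.50 to 3.32 CPM per kb), and the range of Snai1 overlapped that of Msx2 (2.28 to 2.94 CPM per kb). Twist2 was at the low end, at 0.996 to 1.15 CPM per kb, below every other range. With the longest annotated transcript as length, Prrx2 (22.5 to 29.5 CPM per kb) and Zeb1 (22.1 to 29.0 CPM per kb) could not be ordered, and both ranges reached the low end of that of Twist1 (28.9 to 35.0 CPM per kb). Zeb2 still came below these 3 and Twist2 below all others, and the order of the other 5 genes by their means changed.

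**Figure D1:**
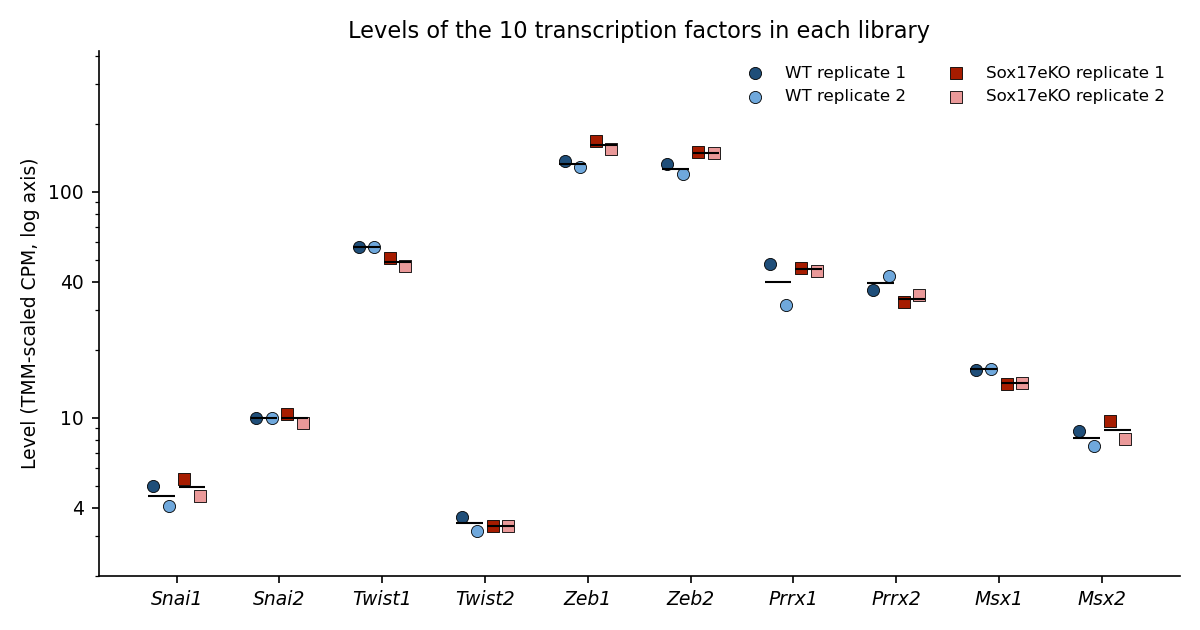
Level of each of the 10 genes in each library, in TMM-scaled CPM on a log axis and not divided by length, with a mark for each of the 2 WT and 2 Sox17eKO pools and a line at each genotype's mean. Both Sox17eKO pools lie above both WT pools for Zeb1 and Zeb2 and below them for Twist1, Prrx2 and Msx1, while the pools of the other 5 genes overlap.

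Of the 10 genes, 1 passed the test between the genotypes. Zeb1 was higher in Sox17eKO, and no gene of the 10 was called lower, at an adjusted p under 0.05 by edgeR's quasi-likelihood test over all genes tested. Among all genes tested, 4.13% were called higher, 1.22% lower and 5.35% in either direction. With scaling by library size only, the calls over all genes were 769 higher and 111 lower, against 684 and 202 with TMM scaling. At an unadjusted p under 0.05 stood 4 of the 10 genes (Zeb1, Zeb2, Twist1 and Prrx2), against 20.9% of all genes. The pools of the 2 genotypes did not overlap for 5 of the 10 genes, against 52.8% of all genes, so that count was close to the background. The log2FC values of the 10 ran from -0.22 to 0.28 with a median of 0.04, and the median over all genes was -0.01. Of the 10, 5 lay above 0, against 48.2% of all genes.

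The ZEB proteins carry a cluster of zinc fingers at each end and a homeodomain between them, and loss of ZEB2 disturbs neural crest derivatives in mice and people. Zeb1 (ENSMUSG00000024238, chromosome 18 from 5591860 to 5775467 on the plus strand of mm10) was at 137 and 128 CPM in WT replicates 1 and 2. In Sox17eKO replicates 1 and 2 it was at 168 and 154 CPM, so both knockout pools lay above both WT pools. The level in Sox17eKO was 1.21-fold that of WT (95% interval 1.08 to 1.36), a log2FC of 0.28 with a standard error (SE) of 0.079 (edgeR adjusted p = 0.0471). That call rested on every library, since the edgeR adjusted p was 0.0612 without WT replicate 1, 0.315 without WT replicate 2, 0.320 without Sox17eKO replicate 1 and 0.0533 without Sox17eKO replicate 2. It also ended with DESeq2 (adjusted p = 0.0643) and limma-voom (adjusted p = 0.0777), while the log2FC stayed at 0.28 and 0.27.

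Zeb2 (ENSMUSG00000026872, chromosome 2 from 44983632 to 45117395 on the minus strand) was at 132 and 120 CPM in WT and at 149 and 148 CPM in Sox17eKO. The knockout pools were again the higher ones, and the pair of them was nearly equal. A log2FC of 0.24, with an SE of 0.077 and a 95% interval from 0.08 to 0.40, did not pass (edgeR adjusted p = 0.0785). The antisense gene Zeb2os covers 3.27% of the Zeb2 exons and had 15 to 33 reads per library. Gm10125, on the opposite strand at the start of Zeb1, covers 1.93% of the Zeb1 exons and had 2 to 23 reads. Zeb1 and Zeb2 themselves had 948 to 3378 reads per library.

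TWIST1 and TWIST2 are basic helix-loop-helix proteins that pair with E proteins such as the product of Tcf4. Twist1 (ENSMUSG00000035799, chromosome 12 from 33957671 to 33959829, plus strand), which drives proliferation and migration of cushion mesenchyme, was at 56.7 and 57.1 CPM in WT and at 50.6 and 47.0 CPM in Sox17eKO. Both knockout pools lay below both WT pools. Twist1 had a log2FC of -0.22 with an SE of 0.085 and did not pass (edgeR adjusted p = 0.137). Twist2 (ENSMUSG00000007805, chromosome 1 from 91801461 to 91848028, plus strand) belongs to dermal mesenchyme in particular and was scarce here, with 25 to 73 reads per library. It was at 3.65 and 3.16 CPM in WT and at 3.31 and 3.32 CPM in Sox17eKO, and the knockout pools lay between the WT pools. Its log2FC of -0.05 had a 95% interval from -0.60 to 0.49, so levels from 0.660-fold to 1.41-fold of WT were within the error at this depth (edgeR adjusted p = 0.935). Gm29100, on the opposite strand, covers 46.5% of the Twist2 exons and had 0 to 5 reads. Without a known strand setting, reads of the pair may not have been told apart. The effect of this overlap on the level of Twist2, and on its place below the other genes, was not tested.

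PRRX1 and PRRX2 are paired-related homeodomain proteins of limb, face and great vessel mesenchyme. Prrx2 (ENSMUSG00000039476, chromosome 2 from 30834972 to 30881251, plus strand) was at 36.5 and 42.5 CPM in WT and at 32.5 and 34.8 CPM in Sox17eKO. The knockout pools were lower, but the WT pools differed from each other by more than the nearest pools of the 2 genotypes did. The log2FC of -0.22 with an SE of 0.10 did not pass (edgeR adjusted p = 0.224).

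Prrx1 (ENSMUSG00000026586, chromosome 1 from 163245119 to 163313710, minus strand) was at 47.8 and 31.6 CPM in WT and at 46.1 and 44.7 CPM in Sox17eKO. WT replicate 2 stood low and the other 3 libraries lay close together. Over all libraries the log2FC was 0.17 with a 95% interval from -0.24 to 0.58 (edgeR adjusted p = 0.641). It was 0.52 and past the threshold without WT replicate 1 (edgeR adjusted p = 0.0205), and -0.08 without WT replicate 2 (edgeR adjusted p = 0.804). The sign and the call for Prrx1 thus depended on which WT pool was kept.

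MSX1 and MSX2 are homeodomain repressors induced by BMP signals, and mice lacking both have malformed outflow cushions. Msx1 (ENSMUSG00000048450, chromosome 5 from 37820485 to 37824583, minus strand) was at 16.3 and 16.4 CPM in WT and at 14.1 and 14.2 CPM in Sox17eKO. Pools of a genotype were close and the genotypes did not overlap. Its log2FC of -0.21, with an SE of 0.13, did not pass (edgeR adjusted p = 0.364). Msx2 (ENSMUSG00000021469, chromosome 13 from 53466884 to 53473074, minus strand) was at 8.76 and 7.46 CPM in WT and at 9.65 and 8.05 CPM in Sox17eKO. Its genotypes overlapped, and its log2FC of 0.10 had a 95% interval from -0.27 to 0.46 (edgeR adjusted p = 0.807).

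SNAI1 and SNAI2 act early in endocardial transformation, where SNAI1 represses the cadherin gene Cdh5 and SNAI2 is a target of Notch signaling. Snai1 (ENSMUSG00000042821, chromosome 2 from 167538195 to 167542814, plus strand) was at 4.96 and 4.05 CPM in WT and at 5.38 and 4.50 CPM in Sox17eKO, which overlapped. The log2FC of 0.10 came from 32 to 99 reads per library and had a 95% interval from -0.38 to 0.57 (edgeR adjusted p = 0.855). Snai2 (ENSMUSG00000022676, chromosome 16 from 14705852 to 14709385, plus strand) was at 10.0 and 9.99 CPM in WT and at 10.4 and 9.46 CPM in Sox17eKO. The knockout pools lay on either side of the WT pools. Its log2FC was -0.02 with a 95% interval from -0.34 to 0.31 (edgeR adjusted p = 0.970), and 0.01 with library size scaling. No difference in either snail gene was detected with 2 pools per genotype at this depth. The intervals run from 0.769-fold to 1.49-fold for Snai1 and from 0.792-fold to 1.24-fold for Snai2.

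**Figure D2:**
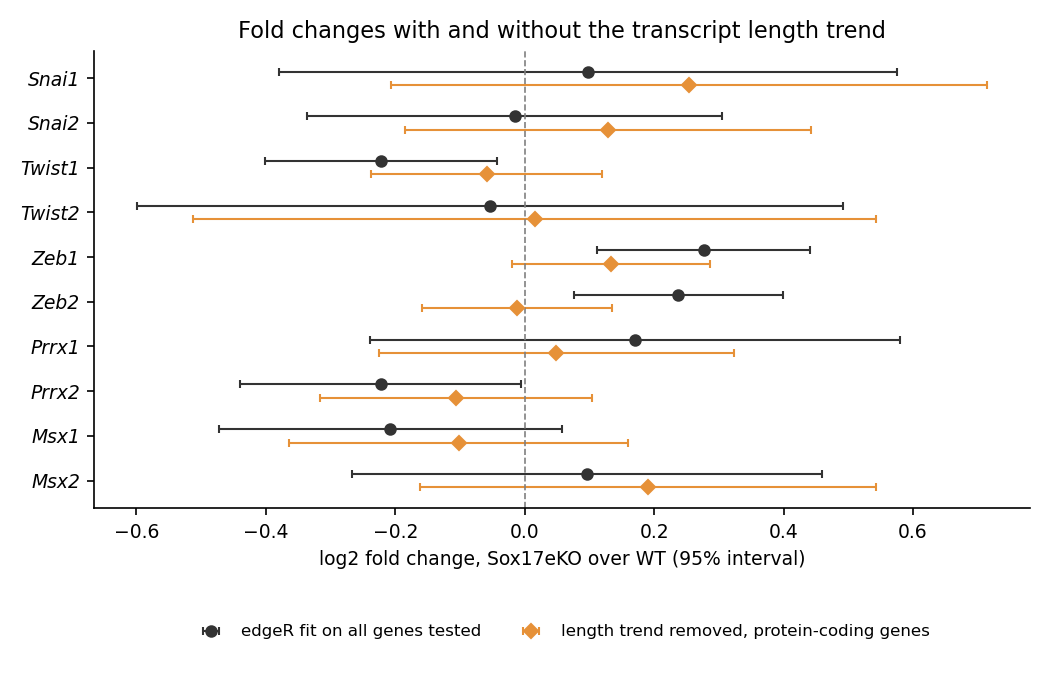
Log2FC of Sox17eKO over WT (horizontal axis) with its 95% interval for each of the 10 genes, from the fit on all genes and from the fit on protein-coding genes with a smooth trend on length removed. Without that step the intervals of Zeb1 and Zeb2 lie above 0 and those of Twist1 and Prrx2 below 0, and with it all 10 intervals include 0.

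The 10 genes fall into long and short ones, and over all genes the fold changes ran with length. Zeb2 has 19942 bp of exons, Prrx1 11066 bp and Zeb1 10266 bp, and the log2FC values of these 3 lay between 0.17 and 0.28. The other 7 genes have 1621 to 3279 bp, and their log2FC values lay between -0.22 and 0.10 with a median of -0.05. Of the 1387 protein-coding genes tested with over 10 kb of exons, 86.5% had a log2FC above 0, with a median of 0.21, and 23.1% were called higher. Zeb1, Zeb2 and Prrx1 thus lay within the middle quartiles of genes of their length (0.08 to 0.33). Of the 1679 genes with 1.5 to 2.5 kb, the class of Twist1, Prrx2, Snai1 and Snai2, 23.3% were above 0 and the median was -0.12. The 4868 genes with 2.5 to 5 kb, the class of Msx1, Msx2 and Twist2, had a median of -0.06. The share of reads that matched no annotated feature was also higher in both Sox17eKO libraries, and its part in these fold changes was not tested.

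With a smooth trend on exonic length and gene span removed from each library, 0 of the 10 genes were called, as were 0.958% of the 13361 protein-coding genes. The log2FC of Zeb1 was then 0.13 (95% interval -0.02 to 0.29, edgeR adjusted p = 0.461) and that of Zeb2 -0.01 (95% interval -0.16 to 0.13, edgeR adjusted p = 0.971). Twist1 was at -0.06 (edgeR adjusted p = 0.844), Prrx2 at -0.11 (edgeR adjusted p = 0.729) and Msx1 at -0.10 (edgeR adjusted p = 0.807). Snai1, at 0.25, had the highest of the 10 log2FC values in that fit (edgeR adjusted p = 0.696). A true difference between the genotypes that followed gene length would be taken away by this step as well.

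**Figure D3:**
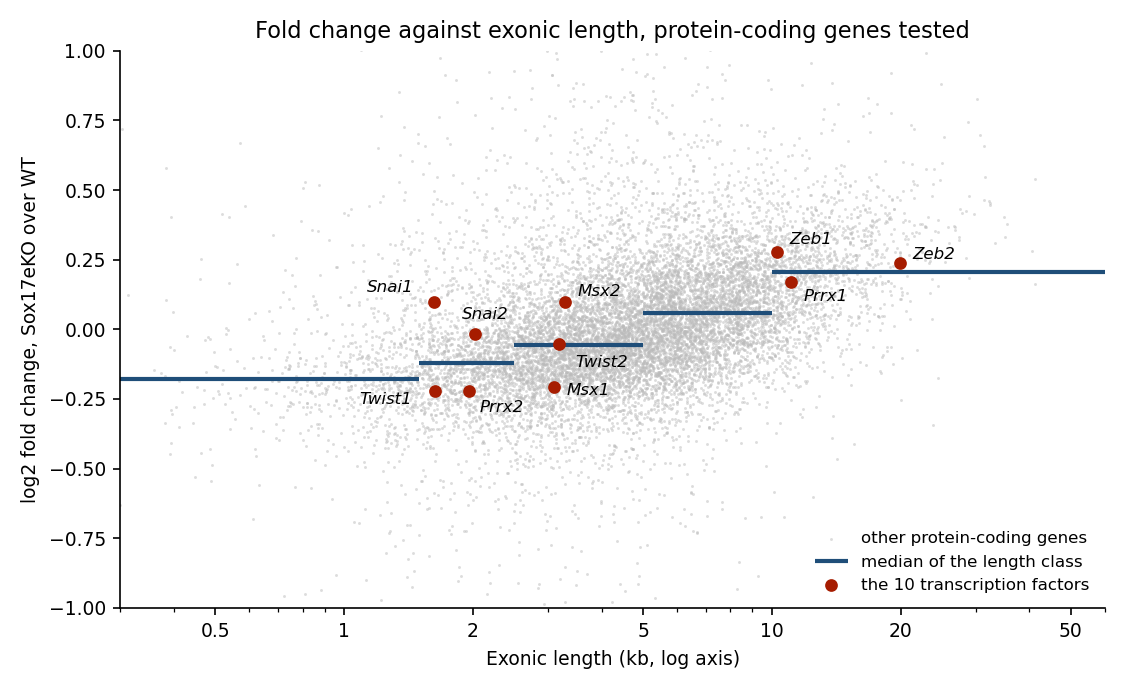
Log2FC of Sox17eKO over WT against exonic length in kb (log axis) for protein-coding genes, with the 10 transcription factors in red and a blue line at the median of each length class. The vertical axis ends at 1 in each direction, which leaves 87 of 13361 genes outside it, and the medians climb from -0.18 in genes up to 1.5 kb to 0.21 in genes over 10 kb, where Zeb1, Zeb2 and Prrx1 lie.

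Which paralogue prevailed differed from pair to pair, and each pair had the same order in all 4 libraries. The share of a pair is its second gene's part of the reads per kb of exon. The trend of fold changes with length was not removed from the shares. Twist2 made up 3.19% and 2.76% of its pair in WT and 3.25% and 3.49% in Sox17eKO, without overlap. These shares rest on 25 to 73 Twist2 reads per library, and the antisense gene Gm29100 covers 46.5% of the Twist2 exons. Prrx2 made up 81.2% and 88.4% of its pair in WT and 79.9% and 81.5% in Sox17eKO. Twist1 and Prrx2 were thus the main transcripts of their pairs. Snai2 made up 61.8% and 66.4% of the snail pair in WT and 60.8% and 62.8% in Sox17eKO. Zeb2 made up 33.2% and 32.5% of its pair in WT and 31.4% and 33.2% in Sox17eKO, which overlapped. Msx2 made up 33.7% and 30.0% of the MSX pair in WT and 39.2% and 34.9% in Sox17eKO, again without overlap. No share could pass a test, since the exact two-sided permutation test of 2 against 2 libraries cannot go below p = 0.333. That value was reached by the Twist2 and Msx2 shares, while the same exact permutation test gave p = 0.667 for Snai2 and Prrx2 and p = 1 for Zeb2.

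The order within a pair depended on the length used in 1 case. Without division by length, Prrx2 held 43.3%, 57.3%, 41.4% and 43.8% of the reads of its pair in WT replicates 1 and 2 and Sox17eKO replicates 1 and 2, because the exons of Prrx1 are longer. With the longest transcript as length it held 76.2% to 85.9%.

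**Figure D4:**
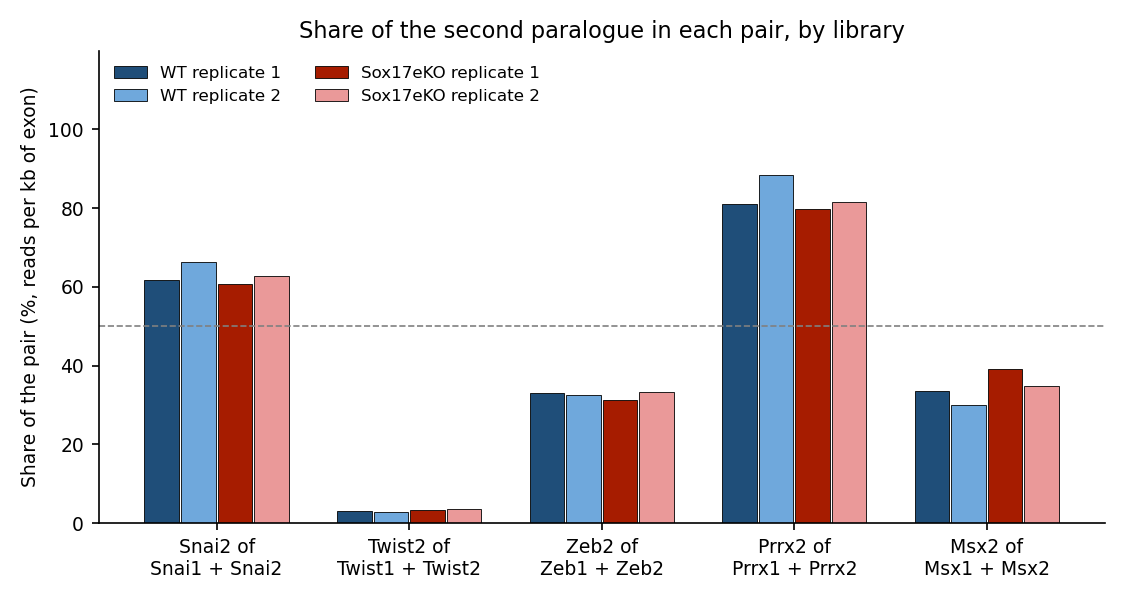
Share of the second-named paralogue in each pair, in percent of the pair's reads per kb of exon, as a bar for each of the 4 libraries, with a dashed line at 50%. Twist2 lies between 2.76% and 3.49% and Prrx2 between 79.9% and 88.4%, and the Msx2 and Twist2 bars of both Sox17eKO pools are above those of both WT pools.

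Genes that act with these factors showed calls at a share near that of all genes. Over 7 lists with 103 genes, 92 were tested, 3 were called higher and 0 lower by edgeR (3.26% in all), beside 4.13% higher and 1.22% lower over all genes. At an unadjusted p under 0.05 stood 21 of the 92, or 22.8%, against 20.9% of all genes. Among 26 inducing signals (ligands, receptors and matrix signals), none was called, and the median log2FC was 0.05. Has2, the hyaluronan synthase of the cardiac jelly, was at 54.3 and 49.6 CPM in WT and at 70.6 and 57.6 CPM in Sox17eKO. Its log2FC of 0.29 missed the threshold (edgeR adjusted p = 0.0871), and was 0.34 after removal of the length trend (edgeR adjusted p = 0.0836). Bmpr2, a BMP receptor, had one of 0.24 (edgeR adjusted p = 0.0807), which was 0.01 after removal of the length trend.

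Among 15 partners and corepressors, Tcf4 was called higher and no gene lower, with a median of -0.06. Tcf4, the E protein gene, was at 125 and 106 CPM in WT and at 139 and 150 CPM in Sox17eKO. The knockout pools were the higher ones, with a log2FC of 0.32 (edgeR adjusted p = 0.0337). It turned to -0.04 with the length trend removed (edgeR adjusted p = 0.877), and the call was lost when WT replicate 2 (0.21, edgeR adjusted p = 0.354), Sox17eKO replicate 1 (0.38, edgeR adjusted p = 0.0592) or Sox17eKO replicate 2 (0.26, edgeR adjusted p = 0.202) was dropped. None of 17 other mesenchyme factors tested was called, with a median of -0.07. Tbx20, a T-box factor of cushions and myocardium, had a log2FC of 0.27 (edgeR adjusted p = 0.0717) and the forkhead gene Foxc1 one of -0.39 (edgeR adjusted p = 0.0546). After removal of the length trend, Tbx20 was at 0.14 (edgeR adjusted p = 0.385) and Foxc1 at -0.35 (edgeR adjusted p = 0.133).

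Of 13 mesenchymal genes tested, Vcan and Cdh2 were called higher and none lower, with a median of -0.01. Vcan, the proteoglycan versican of cushion matrix, was at 1886 and 1456 CPM in WT and at 2490 and 2306 CPM in Sox17eKO, a log2FC of 0.52 (edgeR adjusted p = 0.0106). With the length trend removed it was 0.34 (edgeR adjusted p = 0.0337), but it missed the threshold when WT replicate 2 (0.34, edgeR adjusted p = 0.106) or Sox17eKO replicate 1 (0.46, edgeR adjusted p = 0.0971) was left out. Cdh2, N-cadherin, which cardiomyocytes also express, was at 213 and 186 CPM in WT and at 254 and 260 CPM in Sox17eKO. Its log2FC was 0.37 (edgeR adjusted p = 0.0141), and it missed the threshold when WT replicate 2 or either Sox17eKO library was left out, and after removal of the length trend (0.25, edgeR adjusted p = 0.0836). The summed level of 10 cardiomyocyte markers was 26055 and 25146 CPM in WT and 37523 and 38503 CPM in Sox17eKO, with Ttn and Ryr2 called higher and none lower. Ttn carried most of that difference, since the other 9 markers summed to 17945 and 18660 CPM in WT and to 18131 and 20179 CPM in Sox17eKO, which overlapped. The calls of Ttn and Ryr2 stand beside 4.13% called higher over all genes. Both were still called after removal of the length trend. The log2FC of Ttn went from 1.37 to 0.75 (edgeR adjusted p = 2.34e-07 after removal). That of Ryr2 went from 0.74 to 0.34 (edgeR adjusted p = 0.0141 after removal). The median log2FC of the 10 cardiomyocyte markers was -0.0034, and 5 of them lay above 0. The part of these genes' cells in the Cdh2 result was not tested.

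None of the 10 junction genes that transforming cells turn down was called, and their median log2FC was -0.13. Cldn5, an endothelial claudin, had a log2FC of -0.30 (edgeR adjusted p = 0.302) and Jup, plakoglobin, one of -0.24 (edgeR adjusted p = 0.0988). Cdh5, the target of SNAI1 named above, was at 111 and 123 CPM in WT and at 94.4 and 118 CPM in Sox17eKO, which overlapped (edgeR adjusted p = 0.472). None of 5 factors opposing EMT that were tested, of 9 listed, was called. Grhl1 had a log2FC of 0.49 (edgeR adjusted p = 0.0765) and Klf4 one of -0.27 (edgeR adjusted p = 0.451). Of 6 relatives of the 5 families that were tested, of 11 listed, none was called, with Alx4 at -0.62 (edgeR adjusted p = 0.481) and Snai3 at -0.47 (edgeR adjusted p = 0.543).

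**Figure D5:**
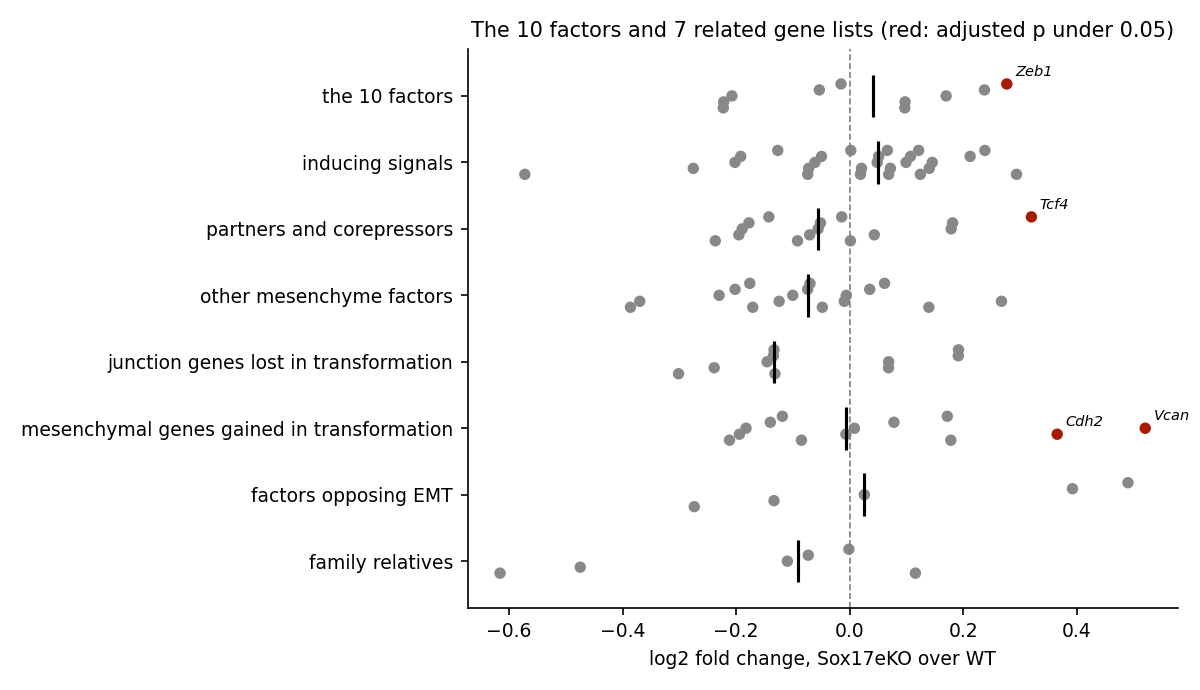
Log2FC of Sox17eKO over WT (horizontal axis) for each tested gene of the 10 factors and of 7 related lists, as points, with a bar at each list's median and red for an adjusted p under 0.05. Zeb1, Tcf4, Cdh2 and Vcan are the 4 genes in red, all above 0, and the medians lie between -0.13 and 0.05.

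Markers of cells that express the 10 factors, or that the dissection could include, were read from the same fit. The calls in each list stand beside 4.13% called higher and 1.22% called lower over all genes. The 12 cushion and valve mesenchyme markers summed to 7727 and 6722 CPM in WT and to 8250 and 8017 CPM in Sox17eKO, with Vcan and Pdgfra called higher and Dcn lower. Without Vcan the other 11 summed to 5841 and 5266 CPM in WT and to 5760 and 5710 CPM in Sox17eKO, which overlapped. After removal of the length trend, Pdgfra (edgeR adjusted p = 0.149) and Dcn (edgeR adjusted p = 0.0520) were no longer called. WT replicate 2, the library with the lowest Prrx1 level, had the lowest sum. The 12 endocardial and endothelial markers summed to 1100 and 1130 CPM in WT and to 1009 and 1093 CPM in Sox17eKO, without overlap. Of these, Tie1 was called lower, a call lost after removal of the length trend (edgeR adjusted p = 0.0599). Among the 12, 1 had a log2FC above 0, against 48.2% of all genes. The median log2FC of the 12 was -0.13, and -0.12 after removal of the length trend. The 8 pharyngeal arch mesenchyme markers, a tissue rich in Twist1, Prrx1 and Msx1, summed to 12.6 to 20.5 CPM over the 4 libraries, most of it Hand1, and the 4 Dlx genes were each below 1 CPM. The 8 neural crest and Schwann precursor markers summed to 32.1 to 38.5 CPM, most of it Erbb3, which endocardial cushions also express. The 8 epithelial markers summed to 44.8 to 51.2 CPM, most of it Krt18 and Krt8, while Cdh1 reached 2.02 CPM and Nkx2-1 was at 0 reads in all 4 libraries. Of these 8, 5 were tested and none was called. The 6 erythroid markers summed to 2333 and 2928 CPM in WT and to 1541 and 2003 CPM in Sox17eKO, with Hbb-y called lower, though not after removal of the length trend (edgeR adjusted p = 0.143). All 6 erythroid markers, all 4 pharyngeal arch markers tested and all 8 epicardial markers had a log2FC below 0. Their medians were -0.54, -0.36 and -0.27 in that order, and -0.36, -0.20 and -0.16 after removal of the length trend. Of the 8 epicardial markers, 2 were called lower, against 1.22% of all genes. Of these, Lrrn4 was still called after removal of the length trend (edgeR adjusted p = 0.0491) and Upk3b was not (edgeR adjusted p = 0.0989). Of 5 smooth muscle markers Myocd was called higher and Cnn1 lower, against 4.13% and 1.22% of all genes, and neither after that removal (edgeR adjusted p = 0.163 and 0.152). None of 5 macrophage markers was called. The part of cell composition in the levels of the 10 factors was not tested.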

How the data were processed

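RNA was measured in 4 libraries, 2 WT and 2 Sox17eKO, each from 10 pooled hearts, and groups came from the sample titles. The authors deposited raw counts per Ensembl gene, not normalized. TopHat2, HTSeq and mm10 were used, per the submitters' processing notes; the sources used here give no version, annotation release or strand setting for the counting. Libraries were made with a strand-specific protocol, per the labels' protocols. The table's 5 summary rows entered neither library sizes nor tests. Reads that matched no feature were 20.4% to 34.1% and ambiguous reads 3.38% to 6.22% of uniquely placed reads. Alignments that were not unique made up 74.2% and 79.0% of all counted in WT replicates 1 and 2. In Sox17eKO replicates 1 and 2 they made up 72.8% and 72.5%.

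Names, positions and lengths came from GENCODE M21 (GRCm38, the assembly of mm10), which matched 45143 of 45706 genes. The test was edgeR 4.0.16's quasi-likelihood test (R 4.3.3, robust, prior count 0.125, TMM factors, filterByExpr, genotype as the only term), with Benjamini-Hochberg adjustment over 16570 genes. Fold changes are Sox17eKO over WT on the log2 scale, with an SE taken as their size over the root of the F statistic. Levels are TMM-scaled CPM. With 2 pools per group, SDs have n = 2, and counting intervals would cover counting error only. The p-values measure spread between pools together with counting noise, and for each gene edgeR estimates that spread with information from the other genes. The pools of a genotype were distinct libraries: chi-square over its degrees of freedom was 4.77 for WT and 6.01 for Sox17eKO, where sampling noise alone gives about 1.

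Alternatives were DESeq2 1.42.0, limma-voom (limma 3.58.1), other scalings and filters, no robust option, a replicate block, each library left out on the same genes, protein-coding genes only, and smooth trends on exonic length, span and GC content removed (mgcv 1.9.3). The trend was fitted without weights, a choice made after the calls with and without weights were seen, and the weighted form was added as an alternative. The leave-one-out fits were set to the same genes after a first version had refiltered them. The scripts were tested on simulated counts. The 10 genes, the lists and the rule for naming genes (all 10, Sox17, and of each list the called genes or else the 2 with the smallest p) were chosen with earlier results of these data known. Cdh5 and the marker genes named lie outside that rule and were chosen after their values were seen.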

Additional observations from a re-analysis of the deposited data

How the results depend on the processing

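Of 170 log2 fold changes of the 10 factors under 17 alternatives, 158 were counted as unchanged, 10 lost a call and 2 gained one. The 158 include the DESeq2 values of Snai1, Snai2, Twist2, Prrx2, Msx1 and Msx2, for which DESeq2 gave no adjusted p. The 10 losses were Zeb1, called in 7 of 17 alternatives (log2 fold change 0.12 to 0.34, adjusted p 0.00865 to 0.461), and the gains were Zeb2 with the replicate block (adjusted p = 0.0254) and Prrx1 without WT replicate 1. Among factors that were not called, the sign turned in 2 alternatives for Snai1, 5 for Snai2, 4 for Twist2, 3 for Zeb2, 1 for Prrx1 and 1 for Msx2. Members called higher numbered 0 with DESeq2, limma-voom, the fit that was not robust, and each of the 3 trend removals, 2 with the replicate block, and 0 to 1 with a library left out, where the 1 was Prrx1. No factor was called lower in any of them.

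Genes called higher over all tested numbered 300 with DESeq2, 421 with limma-voom, 1107 with the replicate block, 90 to 641 when a library was dropped, 104 without the length trend, 153 with the weighted length trend removed (chosen after seeing the data) and 163 with length and GC trends removed. Genes called lower numbered 109, 96, 577, 13 to 329, 24, 30 and 66 in the same order, 111 with library size scaling, 387 with no filter and 105 in the fit that was not robust. Called genes of the 7 lists numbered 7 with no filter, 10 with the replicate block, 0 to 5 when a library was dropped, 5 with protein-coding genes only, 1 without the length trend and 5 with length and GC trends removed. The log2 fold change of Tcf4, between 0.21 and 0.45 in the other alternatives, turned to -0.041 without the length trend, -0.044 without length and GC trends and -0.055 without the weighted trend. The cause of these shifts was not tested, beyond the smaller number of libraries or genes where these were left out. The difference in the Twist2 share moved from 0.39 to 0.72 percentage points without division by length.

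The replicate numbers share only a label: deviations of same-numbered pools correlated at -0.0411 over genes, and no source states a shared litter or day, so the pairing was not used. Depth limits Twist2 and Snai1 most, at 25 to 99 reads per library.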
